A study of Mus musculus with 8 samples.

Results

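The Th17 axis was represented on the panel by 6 of its 248 genes, Il17a, Il21, Il22, Il23a, Il23r and Il22ra2. They were chosen by symbol and not by a cut on their values, though earlier results of these data were known. They were measured in the conjunctiva of female C57BL/6J mice on the nCounter Mouse Inflammation panel, which counts barcoded probes hybridized to RNA without amplification. All 8 mice, 8 weeks old by the labels, underwent 5 days of desiccating stress (DS), a dry, drafty environment combined with scopolamine, which blocks tear secretion. During DS, 4 mice received a daily gavage of 100 µl PBS (DS vehicle, mice 5 to 8) and 4 mice received 100 µl of 0.5 mM tributyrin, a butyrate prodrug (DS tributyrin, mice 9 to 12). An unstressed group was not analysed here, so the data compare treatments within DS only. The tissue was whole conjunctiva, in which fewer cells of a type and less RNA per cell cannot be told apart.

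Th17 cells are helper T cells that arise under IL-6 and TGF-β and are maintained by IL-23. IL-23 is a heterodimer of p19, encoded by Il23a, and the p40 subunit encoded by Il12b, and it is sensed through the receptor chain encoded by Il23r. The cells secrete IL-17A, which drives epithelial and stromal cells to make neutrophil chemokines and matrix metalloproteinases, IL-21, which reinforces the lineage, and IL-22, which acts on epithelium. Il22ra2 encodes a secreted receptor that binds IL-22 and neutralizes it. At the ocular surface, IL-17A is known for its part in corneal barrier disruption during experimental dry eye, which is the setting in which the comparison of the 2 groups was made.

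The Il17a and Il23r upstream sequences are shown because both genes are known targets of RORγt, the transcription factor that defines the Th17 lineage, whose family binds the half-site AGGTCA. RefSeq windows (GRCm38.p6) of the 250 bases before the annotated start were found for 4 of the 6 genes. The half-site, searched as AGGTCA on both strands, is in capitals, where TGACCT is its reverse complement. The Il17a window lies at chr1:20730655-20730904 on the + strand and the Il23r window at chr6:67491856-67492105 on the - strand, each written 5′ to 3′ along its gene.
Il17a: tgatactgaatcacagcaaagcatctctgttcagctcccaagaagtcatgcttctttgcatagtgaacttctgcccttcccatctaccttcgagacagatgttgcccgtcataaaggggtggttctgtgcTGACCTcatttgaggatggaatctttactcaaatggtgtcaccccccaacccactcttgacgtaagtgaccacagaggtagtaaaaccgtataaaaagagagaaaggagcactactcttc
Il23r: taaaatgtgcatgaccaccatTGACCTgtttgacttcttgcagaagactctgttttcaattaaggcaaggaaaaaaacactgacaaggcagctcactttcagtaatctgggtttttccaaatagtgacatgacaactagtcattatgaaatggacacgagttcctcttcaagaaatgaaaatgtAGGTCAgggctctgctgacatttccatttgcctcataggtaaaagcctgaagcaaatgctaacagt
Il17a held 1 match, whose first base lay 120 bases before the start. Il23r held 2 matches, at 229 and 66 bases before the start. The windows of Il21 and Il22 held 0. A match was found in 14.0% of all 32851 windows of this length, and the STAT motif TTCNNNGAA, which was in 7.02% of them, matched in 0 of the 4 windows. These matches describe letters only and carry no measurement of binding.

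All 6 genes lay in the lower part of the table, and Il22 was its lowest row. The deposited values are log2 normalized counts, scaled in each mouse by the authors to 6 reference genes. Once taken out of log2, all values of a mouse (100% of its rows, tolerance 0.001) were integer multiples of a single number. That number was read as its scaling factor and the integers as counts before scaling, from which a background may already have been subtracted. Probes differ in efficiency, so a place in this order is not a ranking of transcripts. By mean normalized count over the 8 mice, Il22 was in position 1 from the bottom (8.66), Il22ra2 in position 16 (20.7), Il17a in position 20 (26.0), Il21 in position 53 (37.7), Il23a in position 74 (51.0) and Il23r in position 106 (100.1). The ranges over the 8 mice overlapped for each neighbouring pair in this order from Il22 up to Il23a, and did not overlap for Il23a and Il23r. Before scaling, Il22 had 5 to 14 counts per mouse, Il22ra2 13 to 33, Il17a 21 to 40, Il21 20 to 57, Il23a 30 to 65 and Il23r 75 to 130.

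**Figure D1:**
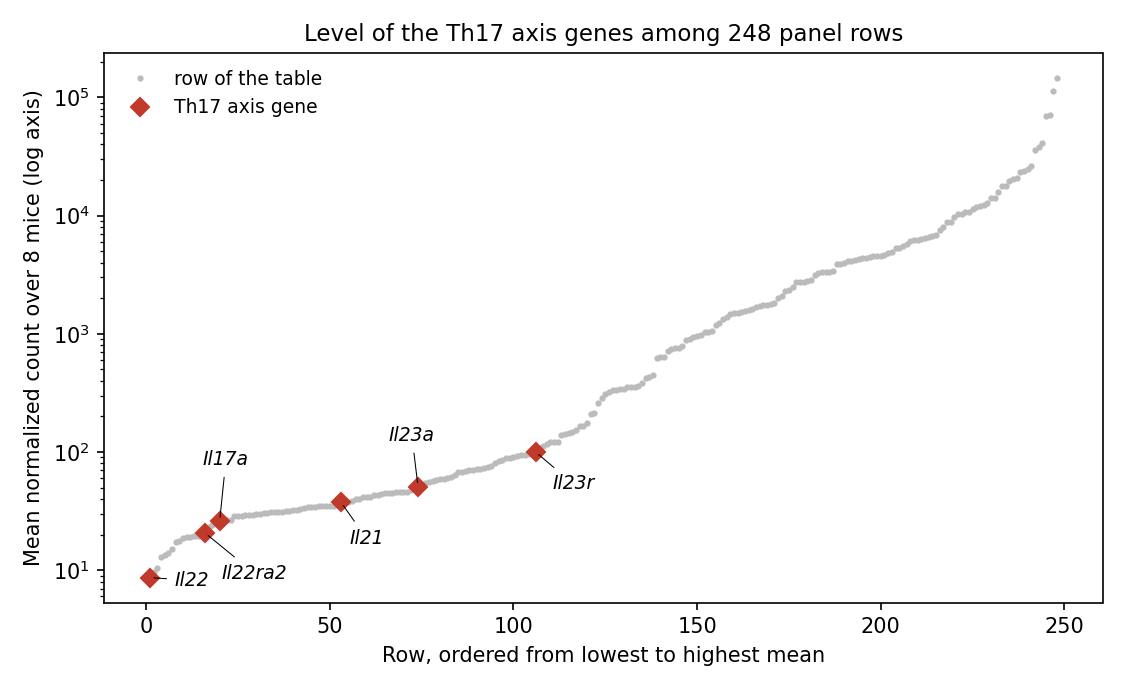
Mean normalized count over 8 mice (log axis) of each of the 248 rows, ordered from lowest to highest, with the 6 Th17 axis genes as red diamonds. Il22 is the lowest row, at 8.66, and the highest of the 6 genes, Il23r, stands at 100.1 in position 106.

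Only the cytokine receptor Il23r stood more than 5 times above the lowest rows of the table in every mouse. The 10 lowest rows were Il22, Il4, Csf2, Cfd, Ccr4, Ccr7, H2-Ea-ps, Tnfsf14, Cxcl3 and Mbl2, and they stand in for a background here because the negative control probes were not analysed. Their mean was 11.3 to 15.7 counts per mouse before scaling. Il22, left out of its own reference, had 0.37 to 0.88 times the mean of the others and was below it in all 8 mice. Il22ra2 had 1.02 to 2.37 times that mean, Il17a 1.50 to 3.03, Il21 1.57 to 4.32, Il23a 2.04 to 4.68 and Il23r 5.37 to 9.35. These rows were chosen by their means in the same data, and Il22 has the lowest mean, so its place below them follows largely from that choice. Without negative controls, whether Il22 was expressed in this tissue cannot be told here. Il22 also lies beside Iltifb, a related gene, in GRCm38.p6, and the table cannot show whether its probe reads both.

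Il17a, the signature cytokine of the axis, had the largest difference of the 6 genes, toward higher values with tributyrin, but it did not pass the test over all rows. Its normalized counts were 17.8, 22.8, 20.7 and 22.7 in vehicle mice 5, 6, 7 and 8, and 34.3, 23.5, 36.3 and 29.7 in tributyrin mice 9, 10, 11 and 12. All 4 tributyrin mice were above all 4 vehicle mice, with tributyrin mouse 10 only 0.69 normalized counts above vehicle mouse 6, where 1 count of mouse 10 is worth 0.838. The means were 21.0 ± 2.32 (SD, n = 4 mice) and 30.9 ± 5.69 (SD, n = 4), a 1.46-fold difference. On the log2 scale, tributyrin exceeded vehicle by 0.55 (standard error 0.15, 95% interval 0.20 to 0.89). The exact permutation test over the 70 assignments of the mice gave an unadjusted p = 0.0286 (two-sided), the smallest that 4 against 4 mice allow. The limma test gave an unadjusted p = 0.00673 and, with Benjamini-Hochberg adjustment over 248 rows, an adjusted p = 0.167, with 0.0717 to 0.361 when each mouse was left out in turn and a highest value of 0.806 without scaling. At an adjusted p of 0.05, 0 of the 6 genes were called, and 0 of the 248 rows (0%).

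**Figure D2:**
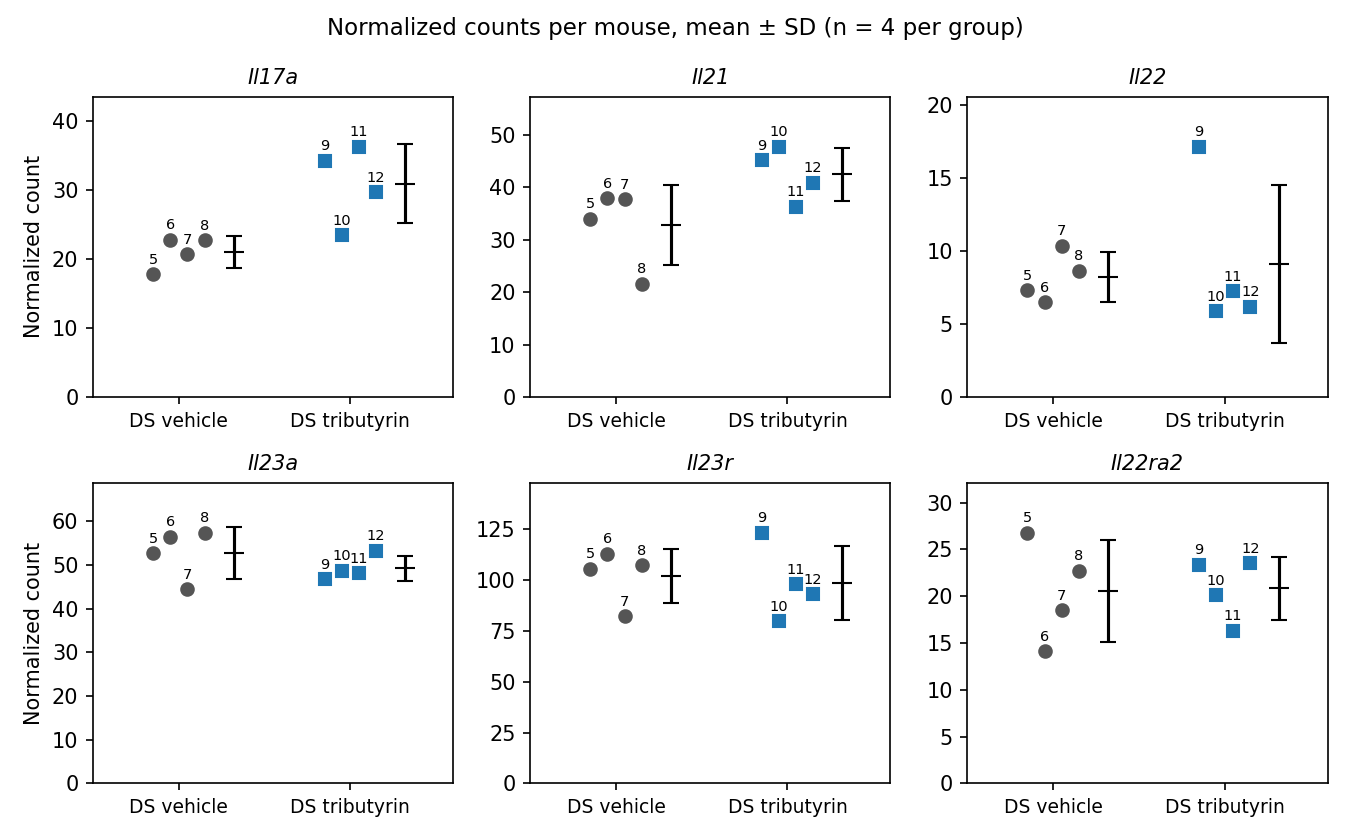
Normalized counts (linear axis from 0) of the 6 genes in each mouse, with mouse numbers above the points and the mean ± SD of each group (n = 4) at its right. The Il17a groups do not overlap, at up to 22.8 with vehicle and from 23.5 with tributyrin, while the other 5 genes overlap between the groups.

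Groups that did not overlap, with tributyrin higher, were found for 1 of the 6 genes and for 8 of all 248 rows (3.23%). An unadjusted limma p under 0.05 toward higher values was also found for 1 of the 6, Il17a, and for 7.26% of all rows, and toward lower values for 0 of the 6 and 5.24% of all rows. The log2 fold change was above 0 for 4 of the 6 genes and for 71.4% of all rows. The median was 0.03 over the 6 genes and 0.06 over the 248 rows. Both counts of 1 rest on Il17a alone, and the share of genes above 0 and the median were close to those of the panel. Among the 73 rows with a mean under 50 normalized counts, which include 4 of the 6 genes, 62 were above 0. The median of those 73 rows was 0.20.

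The separation of Il17a was present after the per-mouse scaling and not before it. The counts before scaling were 22, 21, 28 and 21 in vehicle mice 5, 6, 7 and 8, and 22, 28, 40 and 24 in tributyrin mice 9, 10, 11 and 12. Tributyrin mouse 11 alone was above every vehicle mouse, and its 95% Poisson interval, 28.6 to 54.5 counts, overlapped the 18.6 to 40.5 counts of vehicle mouse 7. These intervals cover counting error only. Before scaling, 0 of the 248 rows (0%) had tributyrin higher without overlap. Tributyrin mouse 9 had the lowest total, 742068 counts, against 923604 to 1494519 in the other 7 mice, and the largest scaling factor, 1.56, which took its 22 counts of Il17a to 34.3. The same factor took the mean of its 10 lowest rows from 14.7 counts to 22.9 normalized counts, whereas the other 7 mice had 11.1 to 15.7 normalized counts for these rows. Relative to the 10 lowest rows of the same mouse, Il17a was at 1.58 to 1.86 times in vehicle mice and at 1.50 to 3.03 times in tributyrin mice, so that the groups overlapped on this measure.

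**Figure D3:**
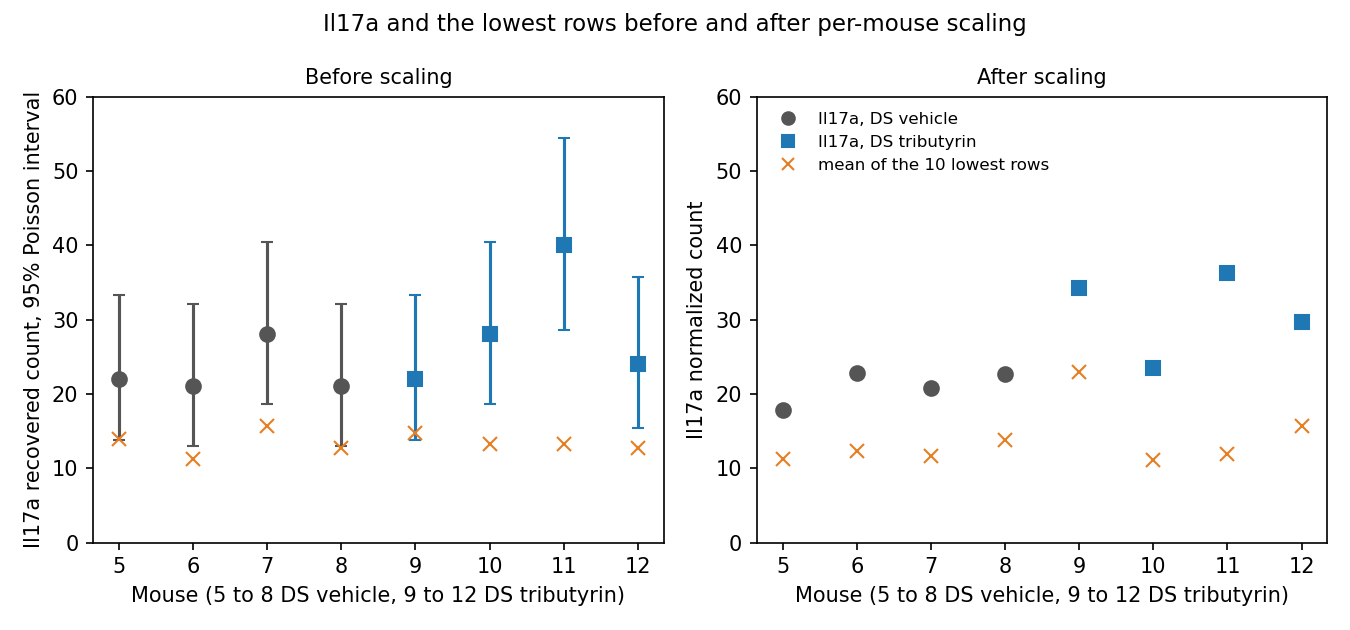
Il17a (circles, vehicle mice; squares, tributyrin mice) and the mean of the 10 lowest rows (crosses) in each mouse, as counts before scaling with 95% Poisson intervals and as normalized counts after scaling (both axes from 0). Mouse 9 has 22 counts of Il17a before scaling, as mouse 5 has, and 34.3 normalized counts after it.

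Scaling moved every gene alike between the groups. Without it the median difference of all 248 rows went from 0.06 to -0.21 on the log2 scale, a shift of -0.26, and the differences of the 6 genes moved by the same amount. Il17a was then at 0.28 (95% interval -0.26 to 0.82, limma unadjusted p = 0.305, adjusted p = 0.806). Scaling to the total count of each mouse gave 0.55 and median centring gave 0.53, near the deposited scale, and quantile normalization gave 0.39. With the log2 scaling factor as a covariate Il17a was at 0.45 (standard error 0.15), and without tributyrin mice 9 and 12, which had the largest factors, at 0.48 (95% interval -0.01 to 0.97). Subtraction of the mean of the 10 lowest rows gave 0.77 (standard error 0.26, limma adjusted p = 0.345). Il17a stayed above 0 under each of these settings and passed under none.

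The scaling factor exactly offsets a count that falls with a slope of -1 against it on log2 axes, and a count unrelated to it has a slope of 0. Over the 8 mice the slope was -0.39 for Il17a (standard error 0.33) and -0.35 for Il22 (standard error 0.52), both within 2 standard errors of 0 and of -1. It was -0.58 for Il23r (standard error 0.18), -0.85 for Il22ra2 (standard error 0.35), -0.91 for Il21 (standard error 0.40) and -0.91 for Il23a (standard error 0.15). The median slope was -0.69 for the 73 rows with a mean under 50 normalized counts, 4 of the 6 genes among them, and -0.98 for the 97 rows with a mean of at least 1000. In those 73 rows the median log2 fold change was 0.20 as deposited and -0.06 before scaling. The part of this shift in the Il17a difference was not tested. The slopes were fitted over all mice without a group term, and the mean log2 factor was -0.13 with vehicle and 0.14 with tributyrin. A difference between the groups therefore also changes the slope, and these cannot be told apart here.

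Il21, which Th17 and follicular helper T cells secrete, had the second largest difference of the 6 genes, also toward higher values, and did not pass. Its normalized counts were 34.1, 38.0, 37.8 and 21.6 in vehicle mice 5, 6, 7 and 8 and 45.2, 47.8, 36.3 and 40.9 in tributyrin mice 9, 10, 11 and 12. Vehicle mouse 8 was well below the rest, and tributyrin mouse 11 lay between vehicle mice 5 and 7. The log2 fold change was 0.40 (standard error 0.19, 95% interval -0.04 to 0.84; limma adjusted p = 0.454, exact permutation p = 0.0857). It fell to 0.21 without vehicle mouse 8, and to 0.14 on counts before scaling, which were 20 to 51 with vehicle and 29 to 57 with tributyrin.

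Il22 and Il22ra2, the epithelium-directed cytokine and its soluble inhibitor, had differences near 0 whose direction depended on the setting. Il22 was at 7.30, 6.51, 10.4 and 8.65 normalized counts in vehicle mice 5, 6, 7 and 8 and at 17.1, 5.87, 7.26 and 6.19 in tributyrin mice 9, 10, 11 and 12. Mouse 9 alone was high, from 11 counts before scaling, and vehicle mouse 7 had 14. The Il22 log2 fold change was 0.02 (95% interval -0.78 to 0.82) and became -0.33 without tributyrin mouse 9. Il22ra2 was at 26.8, 14.1, 18.5 and 22.7 in the same vehicle mice and at 23.4, 20.1, 16.3 and 23.5 in the tributyrin mice. The vehicle mice enclosed all tributyrin mice, and the log2 fold change was 0.05 (95% interval -0.44 to 0.53). It was -0.22 on counts before scaling. As folds of tributyrin over vehicle, the intervals run from 0.58 to 1.77 for Il22 and from 0.74 to 1.45 for Il22ra2. Il10rb, a chain of the membrane receptor for IL-22, was at 5381 ± 278 (SD, n = 4) on vehicle, against 5196 ± 151 (SD, n = 4) on tributyrin, a log2 fold change of -0.05 (limma adjusted p = 0.698).

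Il23a and Il23r, which encode a subunit of IL-23 and a chain of its receptor, had the best counting precision and differences close to 0. Il23a was at 52.7, 56.4, 44.4 and 57.3 normalized counts in vehicle mice 5, 6, 7 and 8 and at 46.7, 48.6, 48.1 and 53.3 in tributyrin mice 9, 10, 11 and 12. The tributyrin mice fell inside the range of the vehicle mice. Its log2 fold change was -0.09 (standard error 0.09, 95% interval -0.31 to 0.12; limma adjusted p = 0.677), an interval of 0.81-fold to 1.09-fold. Without vehicle mouse 7 it was -0.17 (95% interval -0.34 to -0.01; limma unadjusted p = 0.0412, adjusted p = 0.390, against 0.390 to 0.934 over all alternatives). Il23r was at 105, 113, 82.2 and 107 in the vehicle mice and at 123, 79.7, 98.0 and 92.9 in the tributyrin mice. Tributyrin mouse 9 was the highest and tributyrin mouse 10 the lowest of all 8, so that the treated mice enclosed the vehicle mice. The Il23r log2 fold change was -0.06 (standard error 0.15, 95% interval -0.41 to 0.29; limma adjusted p = 0.867), and 0.04 without tributyrin mouse 10. Il12b, which encodes the other IL-23 subunit, was at 27.1 ± 4.11 (SD, n = 4) on vehicle, against 31.6 ± 2.56 (SD, n = 4) on tributyrin, a log2 fold change of 0.23 (limma adjusted p = 0.469) that was -0.03 before scaling.

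**Figure D4:**
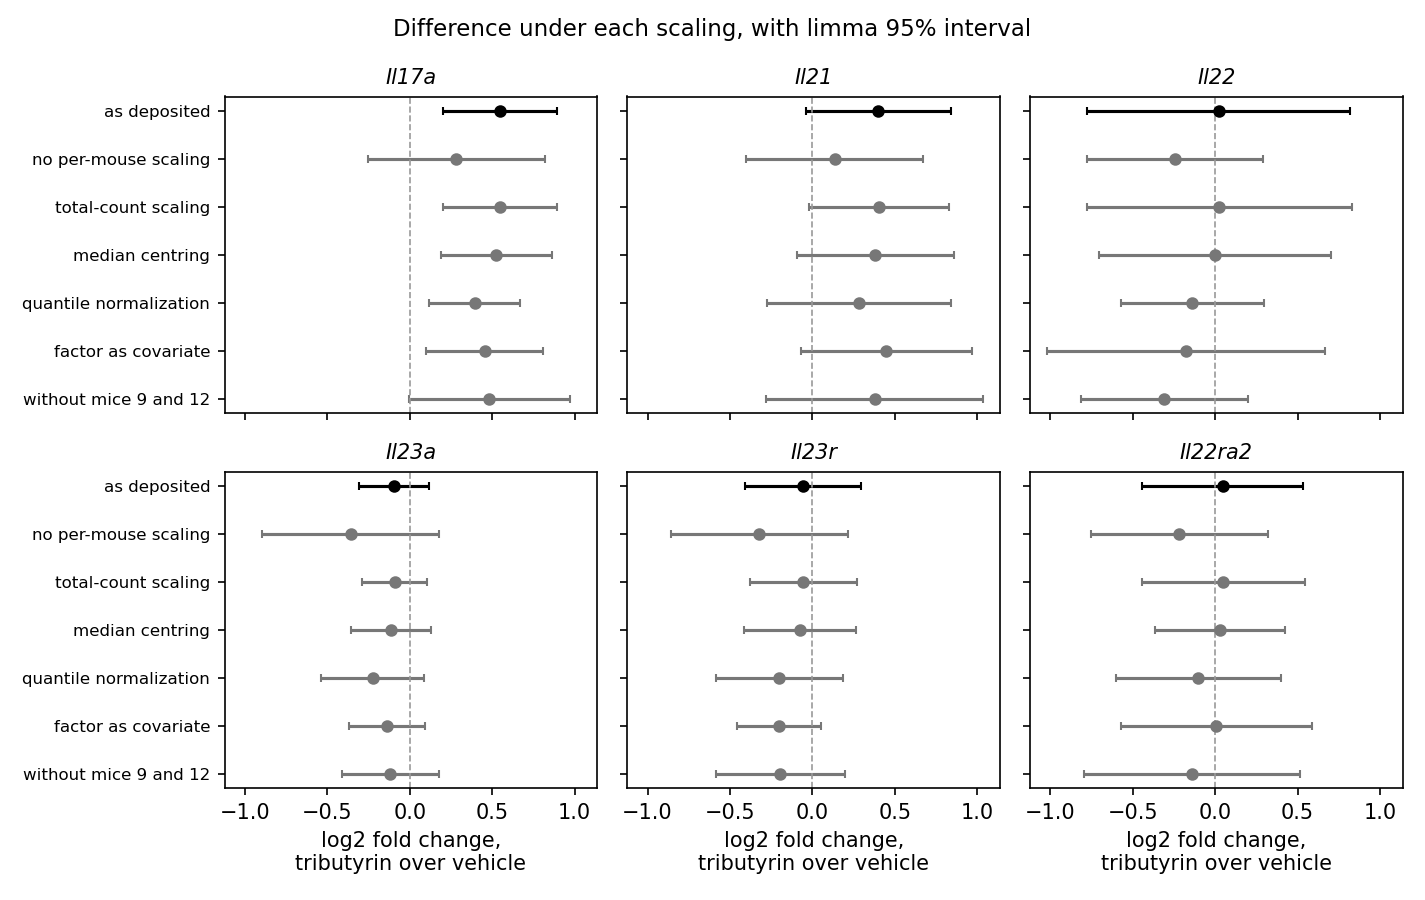
Log2 fold change, tributyrin over vehicle, of each of the 6 genes under 7 settings (points) with limma 95% intervals (bars), the deposited scale in black. Without per-mouse scaling each gene lies 0.26 lower, Il17a at 0.28, and the intervals of the other 5 genes include 0 on the deposited scale.

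Counting error was of the size of the spread between mice. For the difference between the groups, Poisson counting alone gives a standard error of 0.21 on the log2 scale for Il17a. The limma value was 0.15. It does not come from the spread of Il17a alone, since limma draws the variance of each gene toward a value shared by all rows. Counting alone gives 0.17 for Il21, 0.37 for Il22, 0.15 for Il23a, 0.10 for Il23r and 0.23 for Il22ra2. For 4 of the 6 genes, Il17a, Il22, Il23a and Il22ra2, the limma value was below the counting value. How much of this comes from the sharing between rows was not tested. With the counting value, the Il17a interval was 0.14 to 0.95, with no adjustment over the rows. This interval covers counting error only, without the spread between mice, so it is no interval for the treatment difference.

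The measured values of the 6 genes showed no common rise and fall over the 8 mice. Counting error of the size given above pulls r toward 0, so low values do not show that the genes vary independently. Among their 15 pairs, Pearson r of the log2 values ran from -0.58, for Il21 and Il23a, to 0.47, for Il22 and Il23r, with a median of 0.04. Il23a and Il12b, whose products pair in IL-23, had r = -0.22. Before scaling, when the mice also differ in depth, Il23a and Il23r had r = 0.82, against 0.40 after it. The rows most like each gene, out of 247 others, were Chi3l3 (r = 0.83) and Il5 (r = 0.82) for Il17a, Bcl6 (r = 0.93) and Il2 (r = 0.83) for Il21, and Hmgb2 (r = 0.92) and C6 (r = 0.84) for Il22. They were Lta (r = 0.70) and Il1a (r = 0.66) for Il23a, Hspb1 (r = 0.82) and Rhoa (r = 0.80) for Il23r, and Flt1 (r = 0.85) and Tyrobp (r = 0.84) for Il22ra2. These values are the highest of many over 8 mice that share the groups and the scaling factors, and they are a description only.

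Of 34 other panel genes that act upstream or downstream of the axis, none passed the limma test over all rows, and 3 had an unadjusted p under 0.05, 1 toward higher values (7.26% of all rows) and 2 toward lower values (5.24% of all rows). Genes listed for the induction or maintenance of Th17 cells and for the receptors involved numbered 12 (among them Il6 and Tgfb1). None had an unadjusted p under 0.05, and their median log2 fold change of 0.02 compares with 0.06 over all rows. The smallest unadjusted p-values among them belonged to Il12b, to Il6ra, the IL-6 receptor chain (log2 fold change 0.09), and to Tgfb3 (0.28, and -0.10 without tributyrin mice 9 and 12). Of the 13 genes that IL-17A is known to induce or that carry its signal, 10 were above 0, where 177 of the 248 rows (71.4%) were. Their median was 0.18, and 6 of the 13 had means under 50, a class of rows whose median was 0.20. Mmp3, a stromelysin, was at 2534, 1800, 2281 and 1361 normalized counts in vehicle mice 5, 6, 7 and 8 and at 3066, 2658, 2288 and 3717 in tributyrin mice 9, 10, 11 and 12. The groups overlapped only through vehicle mouse 5, and its log2 fold change was 0.57 (standard error 0.22, limma unadjusted p = 0.0339, adjusted p = 0.366). Mmp9, a gelatinase, was at 0.27 (adjusted p = 0.454) and the monocyte chemokine Ccl7 at 0.21 (adjusted p = 0.469).

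The 3 genes listed for IL-22 signalling, Il10rb, Myc and Bcl2l1, had log2 fold changes of -0.05, 0.15 and 0.03. Of the 6 genes listed as restraining Th17 cells, 4 were below 0, with a median of -0.12, where 71 of the 248 rows were below 0. Of the 6, Il12a and Smad7 had an unadjusted limma p under 0.05 toward lower values, as 5.24% of all rows had. Il12a, the p35 subunit of IL-12, which favours Th1 cells, was at 32.4, 28.2, 31.1 and 26.0 normalized counts in vehicle mice 5, 6, 7 and 8 and at 24.9, 22.6, 20.9 and 18.6 in tributyrin mice 9, 10, 11 and 12. All 4 tributyrin mice were below all 4 vehicle mice, as they also were for Smad7 and for several rows outside this list. The share of all 248 rows with this separation was not counted. Before scaling, the Il12a counts overlapped, at 15 to 27 with tributyrin against 24 to 42 with vehicle. The Il12a log2 fold change was -0.44 (standard error 0.11, limma unadjusted p = 0.0042, adjusted p = 0.116). Smad7, an inhibitor of TGF-β signalling, was at -0.19 (limma unadjusted p = 0.0282, adjusted p = 0.366), and Il2, which limits Th17 differentiation, at 0.31 (adjusted p = 0.454).

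**Figure D5:**
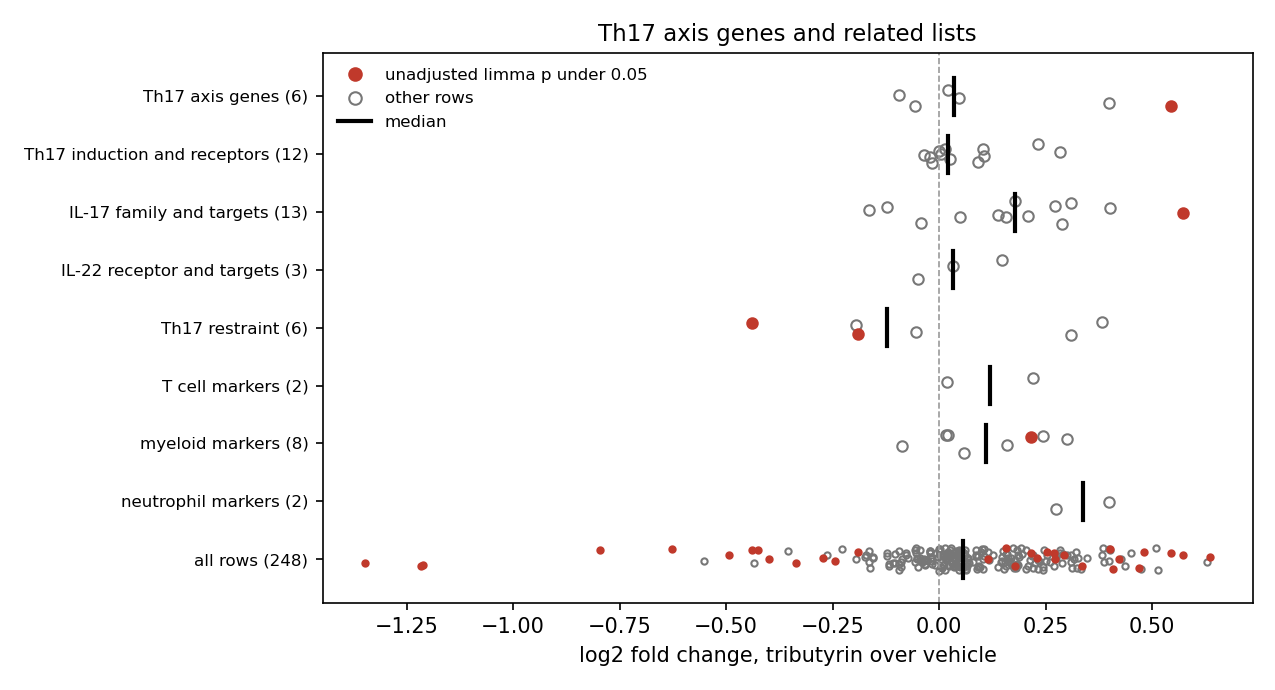
Log2 fold change, tributyrin over vehicle, of the 6 genes, of the genes on each related list and of all rows (circles, 1 per gene; vertical spread within a line has no meaning), with the median of each as a bar and an unadjusted limma p under 0.05 in red. Il17a is the 1 of the 6 genes in red, at 0.55.

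T cells, which include the Th17 cells, were represented by 2 of 14 listed markers, both at low levels. Cd4 was at 28.1 ± 6.91 (SD, n = 4) normalized counts with vehicle and the CD40 ligand gene Cd40lg at 30.8 ± 4.46 (SD, n = 4). Their summed level was 51.9 to 73.8 in vehicle mice and 56.3 to 74.8 in tributyrin mice, and their log2 fold changes were 0.22 for Cd4 and 0.02 for Cd40lg, the latter -0.002 with median centring and -0.14 with quantile normalization. The Cd4 value ran from 0.02, without tributyrin mouse 12, to 0.38, without vehicle mouse 5, as each mouse was left out. The 8 measured myeloid markers of 12 listed summed to 1185 to 1444 in vehicle mice and to 1257 to 1759 in tributyrin mice, with 7 of them above 0, as 71.4% of all rows were, and a median of 0.11. The integrin gene Itgb2 was the 1 with an unadjusted limma p under 0.05, as 7.26% of all rows had toward higher values (log2 fold change 0.22, adjusted p = 0.366). Cd163 was at 0.30 and Mrc1 at 0.24, but at 0.18 and 0.11 without tributyrin mouse 12 and at 0.19 and 0.14 without vehicle mouse 8. The chemokine receptors Cxcr2 and Cxcr1 were the only 2 of the listed neutrophil markers measured. They were at 0.40 (limma adjusted p = 0.416) and 0.28, with sums of 44.4 to 52.1 in vehicle mice and 47.8 to 71.7 in tributyrin mice. The part of these cells in the Il17a difference was not tested. Of 7 markers of conjunctival epithelium, 0 were on the panel, so the tissue label was not checked.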

How the data were processed

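Per the methods, the authors scaled nCounter counts to the geometric mean of 6 reference genes and analysed them on ROSALIND; the deposited table holds the result on a log2 scale for 248 genes, unpooled. Whether a background was subtracted is not stated in the labels or methods. Totals before scaling were 742068 to 1494519 counts per mouse. No pair of columns was identical, and the labels number each mouse, so each was counted as 1 replicate.

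The log2 values were fitted as deposited with limma 3.58.1 in R 4.3.3 (lmFit and eBayes, group as the only term, two-sided) and adjusted over all 248 rows by the Benjamini-Hochberg method, without a filter. Single genes were also tested exactly over the 70 assignments of the mice. The fit was tested on simulated data with known answers. Alternatives were no scaling, total-count scaling, median centring, quantile normalization, subtraction of the 10 lowest rows (floor of 1 count), a pseudocount of 10, filters at means of 20 and 100, a mean-variance trend, voom, the scaling factor as a covariate, and leaving out mice.

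The members and gene lists were chosen with earlier results of these data known. Named are the 6 genes, Il12b and Il10rb, 3 genes per list by the smallest unadjusted p, the 2 rows most like each gene and the 10 lowest rows; list members named beyond these serve to say what a list holds. Gene identifiers of 247 rows matched the GRCm38.p6 table, which was used for names and neighbours, and upstream sequences came from RefSeq. Python 3.11.15 and matplotlib 3.10.9 were used for summaries and plots.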

Additional observations from a re-analysis of the deposited data

Results flagged for a closer look

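In 90 groups of 4 mice, over the 6 genes and the other named genes, 4 held a mouse set well apart by a gap test that picks out about 4.5 of 90 groups by chance. None was a group of the 6 Th17 axis genes. Vehicle mouse 8 was low for Il2 (log2 value 4.11, others 4.61 to 4.70), as it was the lowest vehicle mouse for Il21. Tributyrin mouse 9 was high for Cxcr1 (4.64, others 4.27 to 4.32) and tributyrin mouse 10 low for Cfd (2.92, others 3.95 to 4.10). Vehicle mouse 6 was high for Hspb1 (16.96, others 16.70 to 16.74).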

How the results depend on the processing

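The count of 0 of the 6 genes past an adjusted p of 0.05, and of 0 of the 34 pathway genes, was 0 under every alternative. The exact permutation test adds nothing to this count, because its smallest p of 0.0286 passes the adjustment only if most rows reach it. For Il17a that exact permutation p became 0.394 when adjusted. The filter at a mean of 20 left out Il22 and the filter at 100 left only Il23r. Subtraction of the 10 lowest rows left Il22 at or under the floor in 8 mice and Il22ra2 in 1, so neither has a value there. Il17a and Il21 stayed above 0 and Il23a below 0 in all alternatives, at 0.28 to 0.77, 0.14 to 0.51 and -0.36 to -0.05.

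The other 3 genes changed sign, none past the threshold. Without per-mouse scaling Il22 was at -0.24 and Il22ra2 at -0.22, with quantile normalization at -0.14 and -0.10, and without mice 9 and 12 at -0.31 and -0.14. Il22 was at -0.18 with the factor as a covariate. Without each mouse in turn Il22 ran from -0.33 (without mouse 9) to 0.18, Il22ra2 from -0.12 (without mouse 6) to 0.19 and Il23r from -0.17 to 0.038 (without mouse 10). The changes without scaling follow from its construction, since each gene moved by the same 0.26 toward lower values; the cause of the others was not tested. Without scaling, limma gave every gene the same standard error, 0.27.

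Among other named genes, without per-mouse scaling Bcl2l1 was at -0.23, Ccl7 at -0.056, Cd4 at -0.044, Cd40lg at -0.25, Il12b at -0.033, Il6ra at -0.17, Itgb2 at -0.048, Mrc1 at -0.020 and Myc at -0.12. Cd40lg was also at -0.0020 with median centring, -0.14 with quantile normalization, -0.0065 with the covariate, -0.35 with subtraction, -0.0046 with voom and from -0.18 (without mouse 9) to 0.23 when each mouse was left out. Subtraction gave -0.036 for Cd4, quantile normalization 0.022 for Il10rb, and the fit without mice 9 and 12 -0.020 for Bcl2l1, -0.047 for Mrc1 and -0.095 for Tgfb3. Counts of 5 to 40 per mouse limit Il22, Il22ra2 and Il17a. No paired analysis was possible because mouse numbers in 1 group never recur in the other.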
